A study of Mus musculus with 4 samples.

Results

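Transcripts of 10 genes were followed across the cells of the inflamed mouse colon: the ligands Csf1, Csf2, Csf3 and Kitl and the receptor genes Csf1r, Csf2ra, Csf2rb, Csf3r, Kit and Flt3. They were chosen by symbol from the 32285 genes in the files, and each of the 10 was found. The colony-stimulating factors are secreted proteins that keep myeloid cells alive and drive their production. M-CSF, encoded by Csf1, acts through the kinase receptor Csf1r on monocytes and macrophages. GM-CSF, encoded by Csf2, acts through a specific chain, Csf2ra, paired with the shared chain Csf2rb, and G-CSF, encoded by Csf3, acts through Csf3r, chiefly on neutrophils. Stem cell factor, encoded by Kitl, binds the kinase receptor Kit, which mast cells need, and Flt3 is the receptor for the Flt3 ligand on dendritic cells and their progenitors.

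The cells were leukocytes enriched with magnetic beads for CD45, which marks blood-derived cells at their surface, from the colonic lamina propria of mice with colitis. Colitis was induced with 2% dextran sulfate sodium (DSS), which injures the epithelium, in the drinking water for 7 days, and tissue was collected on day 8. Cells of 3 mice were mixed in each of 4 samples, so the values of single mice cannot be separated. The study used wild-type mice and mice without the aryl hydrocarbon receptor (AhR-null), but the labels do not give the genotype of a sample, and all 4 were left unassigned. The labels give an age of 10 weeks and the study's methods 8 weeks. Values are therefore given for each sample, with ranges and medians over the 4 samples as a description, and no genotypes were compared. No control without DSS was among the samples analysed here.

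The samples held 8493 to 13730 deposited cells with 72509408 to 135516016 unique molecular identifiers (UMIs, each standing for 1 captured transcript molecule), and 7539 to 11824 cells were kept per sample. Pairs of samples shared 23 to 49 cell barcodes, 0.271% to 0.423% of the smaller sample. Marker genes that include none of the 10 placed 76.0% of the 39550 kept cells in a class. Another 18.0% carried markers of unlike lineages, or of both T cells and innate lymphocytes, and were kept apart as mixed. A further 5.94% reached no class, and 5.05% of the placed cells lay close to a limit of the gates. A class name below stands for cells that resemble that type in these markers. Of 20 classes, 16 had at least 20 cells in a sample and were read there. ILC3 (3 to 15 cells per sample), basophils (2 to 12), glia and eosinophils were not read, mast cells were read in sample 2 alone (73 cells), and endothelial cells were read in samples 1, 3 and 4 (24, 84 and 56 cells). Enrichment for CD45 removes most stroma, so the 614 fibroblasts and 182 endothelial cells found do not stand for their number in the tissue.

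A level is given as CPM, the gene's UMIs per 1000000 UMIs summed over all cells of a class in a sample. Intervals are 95% exact Poisson intervals, for a ratio the exact interval of 2 Poisson rates, and cover counting error only. They take UMIs as independent, which they are not where a few cells hold most of them. Cells are not replicates, and no p-value was computed.

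All 10 genes reached 50 CPM in a class that was read in at least 2 samples, a rule that leaves out mast cells. For 7 of the 10, the class with the highest median over samples was also the highest class in every sample in which it was read. Over all 8759 genes that reached 50 CPM in these classes this was so for 51.0%. With the class also at least 2-fold above the next in every sample, 4 of the 10 remained (Csf1r, Csf2, Csf3r and Kitl), beside 16.9% of all genes. The genes were picked with earlier results of these data known, so the counts describe them and test nothing. The 7 were Csf1 (fibroblasts), Csf1r (monocyte-macrophages), Csf2 (ILC2), Csf2ra and Csf3r (neutrophils), Kitl (endothelial cells) and Flt3 (migratory dendritic cells). Csf2rb, Csf3 and Kit had no single highest class. Where mast cells could be read in more samples (mixed cells assigned, clusters in place of gates, or a minimum of 10 cells), mast cells had the highest median for Csf1, Csf2rb and Kit.

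**Figure D1:**
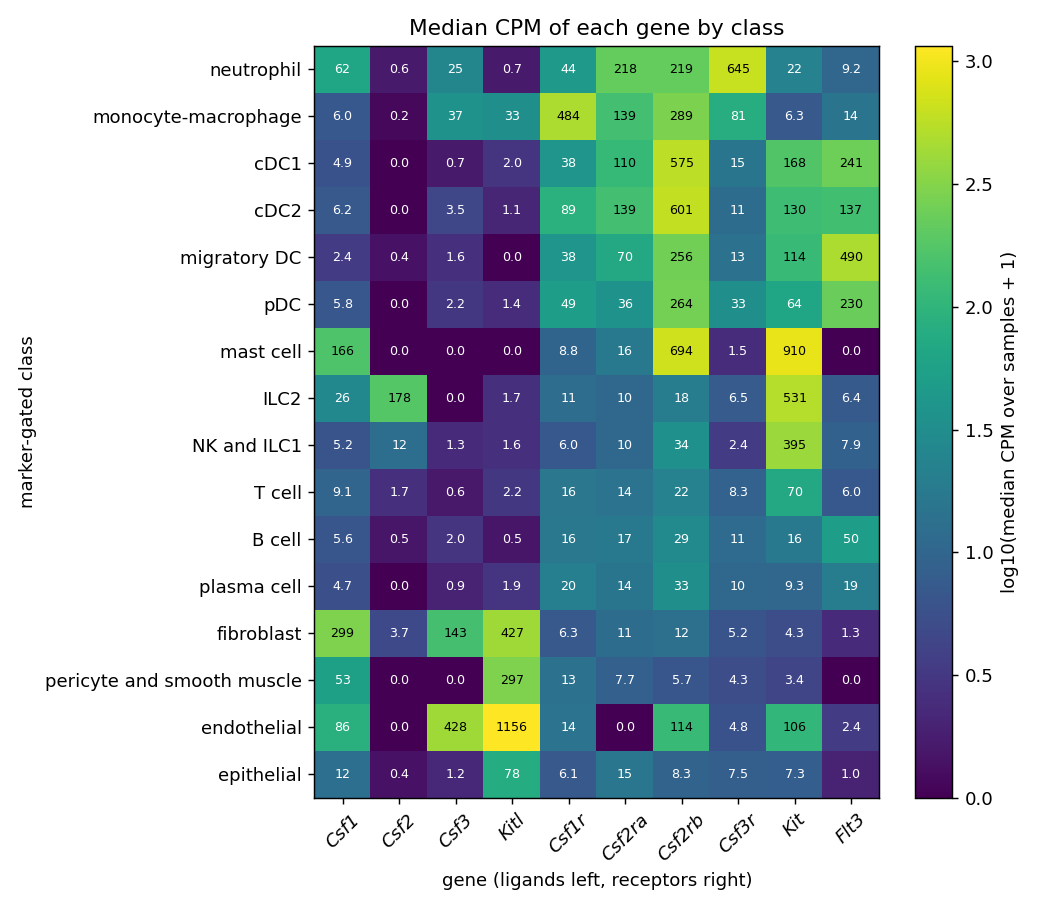
Median CPM over the samples read, for each of the 10 genes (columns, ligands first) in the 16 classes read (rows), with the median printed in each cell and colour on a log10 scale. The ligand columns have their highest values in fibroblasts, ILC2 and endothelial cells, while Csf3r is highest in neutrophils (645 CPM) and Csf1r in monocyte-macrophages (484 CPM). The mast cell row rests on sample 2 alone.

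Csf3r and Csf2ra were both highest in neutrophils, and the 250 bases before the RefSeq start of each gene are shown because both hold the letters GAGGAA or the reverse complement TTCCTC, the core of the sites bound by the myeloid transcription factor PU.1 and other ETS proteins. The capitals mark every match on either strand, and the build is GRCm38.p6. Csf3r lies on the plus strand at chr4:126024409-126024658 and has 1 match, and Csf2ra lies on the minus strand at chr19:61228419-61228668 and has 2.
Csf3r: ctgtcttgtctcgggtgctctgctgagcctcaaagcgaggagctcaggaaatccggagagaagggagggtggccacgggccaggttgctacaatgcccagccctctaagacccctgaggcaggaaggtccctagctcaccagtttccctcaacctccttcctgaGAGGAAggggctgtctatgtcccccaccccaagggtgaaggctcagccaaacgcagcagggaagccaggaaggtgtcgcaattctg
Csf2ra: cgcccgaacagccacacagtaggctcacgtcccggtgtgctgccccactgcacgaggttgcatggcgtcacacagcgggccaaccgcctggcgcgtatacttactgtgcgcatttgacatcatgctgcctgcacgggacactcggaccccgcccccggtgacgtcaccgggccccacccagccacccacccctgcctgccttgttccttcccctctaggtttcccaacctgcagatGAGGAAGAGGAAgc
GENCODE M21 places both starts further upstream than RefSeq, so the last bases of each stretch lie inside the GENCODE gene, with the Csf3r match and part of the Csf2ra matches among them. Such letters are common. Of 32851 promoters of the same length, 23.3% hold them, and among the 7 of the 10 genes with a RefSeq promoter they are in 3, the third being Kit, which was not high in neutrophils. A match is a description of the letters and not evidence of binding. Spi1, which encodes PU.1, was itself highest in neutrophils in every sample (396 to 462 CPM), above monocyte-macrophages (287 to 357 CPM).

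Csf1, which encodes M-CSF (chr3:107741048-107760469, minus strand, GENCODE M21 on GRCm38, as are all gene positions below), was highest in fibroblasts, the collagen-making cells of the stroma, among the classes read in at least 2 samples. Fibroblasts held 235, 306, 338 and 292 CPM in samples 1 to 4, against 5.25, 5.98, 6.03 and 7.68 CPM in monocyte-macrophages. The 2 classes were far apart in every sample, with ratios of 38.1 to 56.1 (median 47.9) and every lower bound at or above 30.1. Endothelial cells came below fibroblasts with 164, 86.2 and 82.2 CPM in samples 1, 3 and 4, and the ratio was nearest to 1 in sample 1, at 1.44 (1.08 to 1.94). Mast cells of sample 2 held 166 CPM, below the fibroblasts of that sample, and the 16, 7 and 8 mast cells of samples 1, 3 and 4, too few to be read, held 477, 293 and 326 CPM.

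Neutrophils were the haematopoietic class with the most Csf1 among those read in all samples, at 56.1, 85.0, 67.6 and 52.5 CPM. Every one of these values lay above every value of monocyte-macrophages, T cells and B cells. Within neutrophils, Csf1 was higher in mature cells (109, 136, 86.3 and 90.9 CPM) than in immature cells rich in granule transcripts (42.1, 43.3, 57.8 and 45.6 CPM). The mature and immature ranges did not overlap, and the ratio was 1.49 to 3.15. Immature cells were the deeper, as in sample 3 (9211854 UMIs in 1438 cells against 4856144 in 1211 mature cells). Per cell, Csf1 UMIs were not higher in the mature cells of that sample (419, against 532 in the immature cells). A Csf1 UMI was found in 21.4% to 24.0% of mature neutrophils, beside 0.771% to 3.90% of B cells, which are not a known source. After thinning of every cell to 1000 UMIs the shares were 8.39% to 13.2% and 0.260% to 0.372%. The median depth was 4505 UMIs per neutrophil and 5018 per B cell.

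By number, neutrophils held 14.8% to 34.0% of all Csf1 UMIs in a sample and fibroblasts 10.6% to 30.7%, while mixed cells held 19.6% to 27.3%. Fibroblasts were few and rich, and neutrophils many and poorer. Basophils were too few to read, but their 12, 2, 8 and 3 cells held 73, 6, 66 and 11 Csf1 UMIs, or 1120, 428, 1310 and 473 CPM, above every fibroblast value. CD4 T cells held 1.74, 6.84, 18.7 and 25.8 CPM, with samples 3 and 4 above samples 1 and 2. Il34, the other ligand of Csf1r, was highest in pericytes and smooth muscle cells in all 4 samples, at 189 to 422 CPM, with fibroblasts at 13.8 to 36.3 CPM.

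Csf2, which encodes GM-CSF (chr11:54247271-54249667, minus strand), was highest in ILC2, innate lymphocytes that make type 2 cytokines. ILC2 held 286, 232, 121 and 123 CPM (113, 86, 61 and 91 UMIs), so that samples 1 and 2 were above samples 3 and 4. NK and ILC1 cells held 46.6, 12.4, 10.97 and 9.16 CPM, and T cells 1.56, 2.18, 0.394 and 1.81 CPM. ILC2 exceeded NK and ILC1 cells 6.14- to 18.7-fold and T cells 68.2- to 307-fold, and no value of one class reached another. A Csf2 UMI was seen in 25.3% to 54.7% of ILC2 and in 0.476% to 1.03% of T cells. After thinning the shares were 5.49% to 20.7% and 0% to 0.309%, with B cells at 0% to 0.328%. Before thinning, B cells were at 0% to 0.361%, below T cells in each sample, and held 0.640, 0.457, 0.569 and 0 CPM, so T cells were higher in CPM in samples 1, 2 and 4, with intervals apart in sample 2 alone (1.54 to 3.01 against 0.236 to 0.798 CPM). No UMI was found in 803 thinned T cells of sample 1, which allows a share of up to 0.374%, or in 385 B cells of sample 4, which allows 0.779%. With clusters of cells in place of single-cell gates, the median ratio of ILC2 to T cells was 35.4 instead of 145, and with thinned cells 64.5. The median ratio of ILC2 to NK and ILC1 cells went from 12.2 to 6.28 with clusters and to 5.22 with thinned cells.

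The comparison of ILC3, a known source of GM-CSF in the gut, with T cells could not be made, because ILC3 had too few cells. Their 12, 15, 3 and 5 cells held 16, 8, 10 and 3 Csf2 UMIs. A few cells carried much of the message in ILC2 as well, where 5 cells held 34.1% to 59.0% of the Csf2 UMIs of a sample. ILC2 were 60 to 133 cells per sample, yet held 32.3% to 40.8% of all Csf2 UMIs. Il5, an eosinophil cytokine whose receptor shares Csf2rb, was also highest in ILC2, at 141 to 425 CPM, and at most 1.28 CPM in T cells. Il3, the third cytokine acting through Csf2rb, had no UMI in the classes read, and 1 UMI in the 12 basophils of sample 1.

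Csf3, which encodes G-CSF (chr11:98701263-98703629, plus strand), was high in 2 stromal classes. Endothelial cells held 247, 489 and 428 CPM in samples 1, 3 and 4, and fibroblasts 271, 122, 164 and 107 CPM in samples 1 to 4. The order differed between samples. In sample 1 the ratio of endothelial cells to fibroblasts was 0.910 (0.710 to 1.16), within counting error of 1, and in samples 3 and 4 it was 2.98 and 3.99, with both intervals above 1. Few cells carried these UMIs: 5 cells held 48.9% to 90.5% of them in fibroblasts and 48.1% to 96.8% in the endothelial cells of the samples read. The intervals are therefore too narrow for this gene.

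Csf3 was also detected in monocyte-macrophages, at 16.4, 19.5, 65.3 and 54.0 CPM, and in neutrophils, at 12.9, 38.7, 27.6 and 21.9 CPM. Fibroblasts were 16.5, 6.25, 2.51 and 1.98 times above monocyte-macrophages, with every interval above 1, although these intervals are too narrow as well. A Csf3 UMI was in 19.35%, 11.49%, 16.46% and 11.19% of fibroblasts and 7.292%, 5.915%, 18.52% and 14.01% of monocyte-macrophages. Fibroblasts were thus the lower by this share in samples 3 and 4. After thinning the shares were 8.475%, 3.448%, 6.542% and 7.042% against 1.676%, 1.93%, 5.173% and 4.635%. Samples 3 and 4 had both more Csf3 in monocyte-macrophages and the smaller ratios. Within the class, monocytes (20.3, 43.0, 70.3 and 88.7 CPM) were above macrophages (9.52, 7.45, 59.5 and 31.8 CPM) in each sample, by 1.18- to 5.78-fold. A Csf3 UMI was found in 8.69% to 22.2% of monocytes and in 0.333% to 1.62% of B cells, and after thinning in 1.92% to 7.95% and 0.0372% to 0.519%.

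Because monocyte-macrophages were so many, they held 24.9% to 33.7% of all Csf3 UMIs in a sample, beside 8.36% to 11.8% in endothelial cells and 6.84% to 21.4% in fibroblasts. The share of stroma depends on the enrichment for CD45. Monocytes held Csf3 at 7.49% to 82.8% of the fibroblast level. Beside it, 4 other fibroblast genes were in monocytes at 0.0125% to 0.168% of theirs. These were Mgp, Slit3, Sfrp1 and Serpina3n, named like the comparison genes below after the data were seen. They are among the genes of highest fold in fibroblasts, so their low levels elsewhere follow partly from the choice. Set against endothelial cells, the monocyte Csf3 level was 8.23% to 20.7%, with sample 2 counted although it has 18 endothelial cells. The 4 endothelial genes Fabp4, Plvap, Cyyr1 and Esam were at 0% to 0.0859%. Of these, Fabp4, Plvap and Cyyr1 are likewise among the genes of highest fold in their class. Whether transcripts came from other cells was not tested.

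Kitl, which encodes stem cell factor (chr10:100015630-100100416, plus strand), was highest in endothelial cells, the lining of vessels, at 1036, 1383 and 1156 CPM in samples 1, 3 and 4. Fibroblasts held 342, 127, 579 and 512 CPM in samples 1 to 4, and pericytes and smooth muscle cells 273, 278, 317 and 541 CPM. Endothelial cells were 3.03, 2.39 and 2.26 times above fibroblasts in the 3 samples read, with intervals above 1, while the ranges of fibroblasts and pericytes overlapped. Epithelial cells followed at 70.9 to 87.7 CPM. Of the endothelial cells, 82.1% to 84.5% had a Kitl UMI, beside 0.148% to 0.513% of B cells.

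Macrophages also carried Kitl, at 14.96, 54.7, 59.8 and 100 CPM, and monocytes almost none, at 0.833, 1.24, 2.38 and 2.62 CPM. The difference was 17.9- to 44.1-fold and far outside counting error in every sample. UMIs were in 3.40% to 14.3% of macrophages and 0.515% to 1.15% of monocytes, and after thinning in 1.39% to 5.57% and 0% to 0.289%, the 0 allowing up to 0.607% in the 494 monocytes of sample 2. The macrophage Kitl level was 4.37% to 43.2% of that of fibroblasts. The same 4 fibroblast genes, with the same limit of choice, were at 0.0293% to 0.1998% in macrophages. Set against endothelial cells, the macrophage Kitl level was lower, at 1.44% to 8.68%, and the comparison genes of that class were at 0% to 0.211%. Whether these transcripts came from other cells was not tested. Monocyte-macrophages held 10.4% to 28.1% of all Kitl UMIs in a sample.

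**Figure D2:**
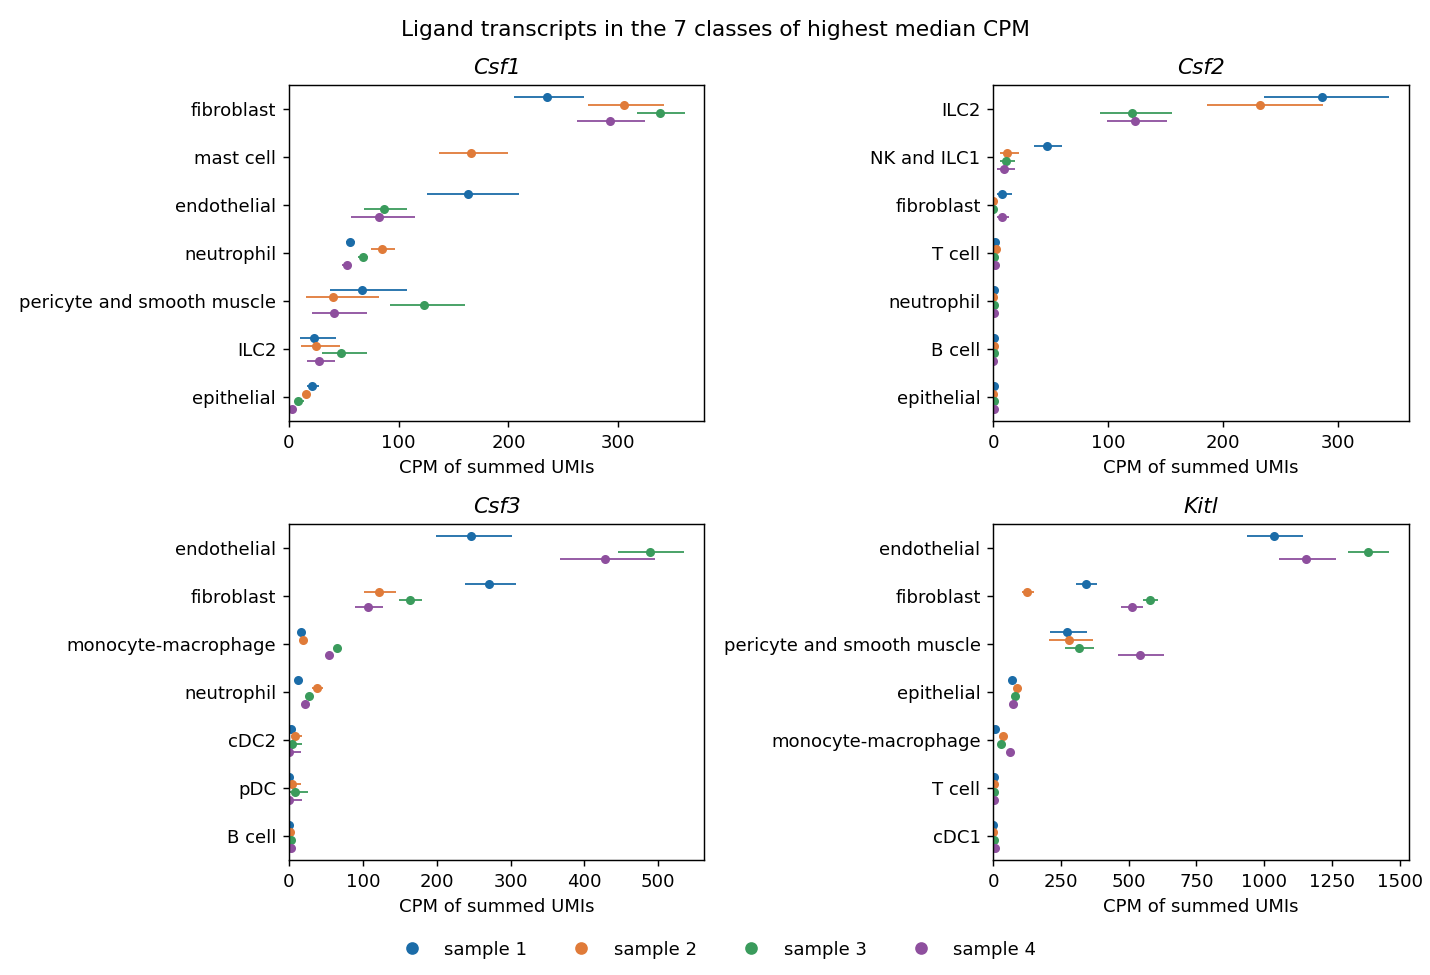
CPM of the 4 ligand genes in the 7 classes with the highest medians, with 1 point per sample and bars for 95% exact Poisson intervals, which cover counting error only. Among classes read in at least 2 samples, fibroblasts lead for Csf1 (mast cells where more of them were read under 3 of the 10 alternatives), ILC2 for Csf2, endothelial cells for Kitl, and endothelial cells and fibroblasts exchange places between samples for Csf3. Classes with under 20 cells in a sample have no point there.

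Csf1r, the receptor for M-CSF and IL-34 (on chromosome 18), was highest in monocyte-macrophages. The class held 503, 557, 465 and 389 CPM, against 43.0, 44.1, 79.9 and 39.5 CPM in neutrophils, 13.6 to 19.7 CPM in B cells and 82.3 to 158 CPM in cDC2. The ratio to neutrophils was 11.7, 12.6, 5.82 and 9.85, lowest in sample 3, and monocyte-macrophages were at least 3.18-fold above the next class in every sample. Macrophages (580, 644, 552 and 429 CPM) were above monocytes (461, 387, 393 and 328 CPM) in every sample, by 1.26- to 1.66-fold, although the lowest macrophage value lay below the highest monocyte value.

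The low neutrophil level of Csf1r was not that of B cells. After thinning, 3.90% to 6.62% of neutrophils and 0.781% to 1.82% of B cells had a UMI, beside 30.4% to 40.2% of monocyte-macrophages, whose median depth was 7011 UMIs. In immature neutrophils Csf1r was at 5.29% to 12.7% of the macrophage level, and the macrophage genes C1qb, C1qc, Pf4 and Ccl8 were at 0.443% to 2.15% of theirs. In mature neutrophils Csf1r was at 8.77% to 17.8%, and the 4 genes at 0.716% to 31.3%, the highest being Ccl8 in sample 1. C1qb and C1qc were among the markers that split macrophages from monocytes, so these shares were partly set by the gates. Whether transcripts came from other cells was not tested.

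Csf2ra, the GM-CSF-specific receptor chain (chr19:61223957-61228429, minus strand), was highest in neutrophils at 191, 240, 225 and 212 CPM. Monocyte-macrophages held 141, 143, 138 and 115 CPM, and the 2 ranges did not overlap. The ratio was 1.36 to 1.85, with every interval above 1. cDC1 (95.4 to 150 CPM) and cDC2 (125 to 147 CPM) overlapped with monocyte-macrophages. Monocytes (151, 172, 175 and 153 CPM) were above macrophages (123, 128, 93.6 and 89.9 CPM), with no overlap and ratios of 1.22 to 1.87. In the other leukocyte classes, migratory DCs (57.2 to 78.9 CPM) and pDCs (18.7 to 60.5 CPM) came next, and T cells and B cells stayed at or below 22.2 CPM.

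Csf2rb, the signalling chain shared by GM-CSF, IL-3 and IL-5 (chr15:78325752-78353847, plus strand), lies beside Csf2rb2, a near-identical copy used for IL-3 in mice (chr15:78282507-78305721, minus strand). Reads that fit both copies could not be told apart in the counts, so both levels are uncertain. Csf2rb was highest in dendritic cells among the classes read in all samples, with cDC1 at 820, 582, 508 and 569 CPM and cDC2 at 678, 526, 463 and 675 CPM. cDC1 led in samples 1 to 3 and cDC2 in sample 4, and their ranges overlapped. Mast cells of sample 2 held 694 CPM.

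For neutrophils against monocyte-macrophages, the 2 chains of the GM-CSF receptor went in opposite directions. Neutrophils held 247, 200, 239 and 157 CPM of Csf2rb, and monocyte-macrophages 441, 296, 282 and 197 CPM. Neutrophils were lower in every sample, at 0.561 to 0.848 of the monocyte-macrophage level with every interval below 1, although the ranges over samples overlapped. Csf2rb2 had the same direction, at 0.374 to 0.431. Monocytes were above macrophages for Csf2rb, as for Csf2ra, by 1.17- to 1.46-fold in every sample. Endothelial cells held 67.5 to 155 CPM of Csf2rb in the 3 samples read, while fibroblasts held 4.98 to 14.5 CPM.

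Csf3r, the G-CSF receptor (chr4:126024550-126044440, plus strand), was highest in neutrophils, the cells whose output G-CSF drives. They held 722, 674, 616 and 532 CPM, and monocyte-macrophages 79.2, 72.1, 96.1 and 82.4 CPM. Their ratio was 9.12, 9.34, 6.41 and 6.45, and the ranges were far apart. Mature neutrophils (1037, 851, 728 and 677 CPM) were above immature ones (638, 531, 556 and 505 CPM) in every sample, by 1.31- to 1.63-fold, with no overlap between their ranges. This holds for CPM, a share of all UMIs. Immature neutrophils held more Csf3r UMIs per cell in samples 1, 3 and 4, as in sample 1 (5705 in 1048 cells against 2453 in 512). Csf3r UMIs were in 82.3% to 93.3% of neutrophils, 33.5% to 48.0% of monocyte-macrophages and 2.82% to 7.23% of B cells, and after thinning in 42.0% to 52.6%, 7.65% to 9.10% and 0.260% to 1.16%.

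Monocytes held Csf3r at 8.20% to 14.9% of the mature neutrophil level and macrophages at 6.62% to 11.6%. Of 4 other neutrophil genes, G0s2, Stfa2l1 and Asprv1 were at no more than 4.22% in monocytes and 1.32% in macrophages, and Hcar2 was at 2.49% to 9.36% and 3.24% to 6.35%. In sample 1, Hcar2 in monocytes was at a higher share of its neutrophil level (9.36%) than Csf3r (8.20%). Stfa2l1 is among the genes of highest fold in neutrophils, so its low share follows partly from the choice.

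**Figure D3:**
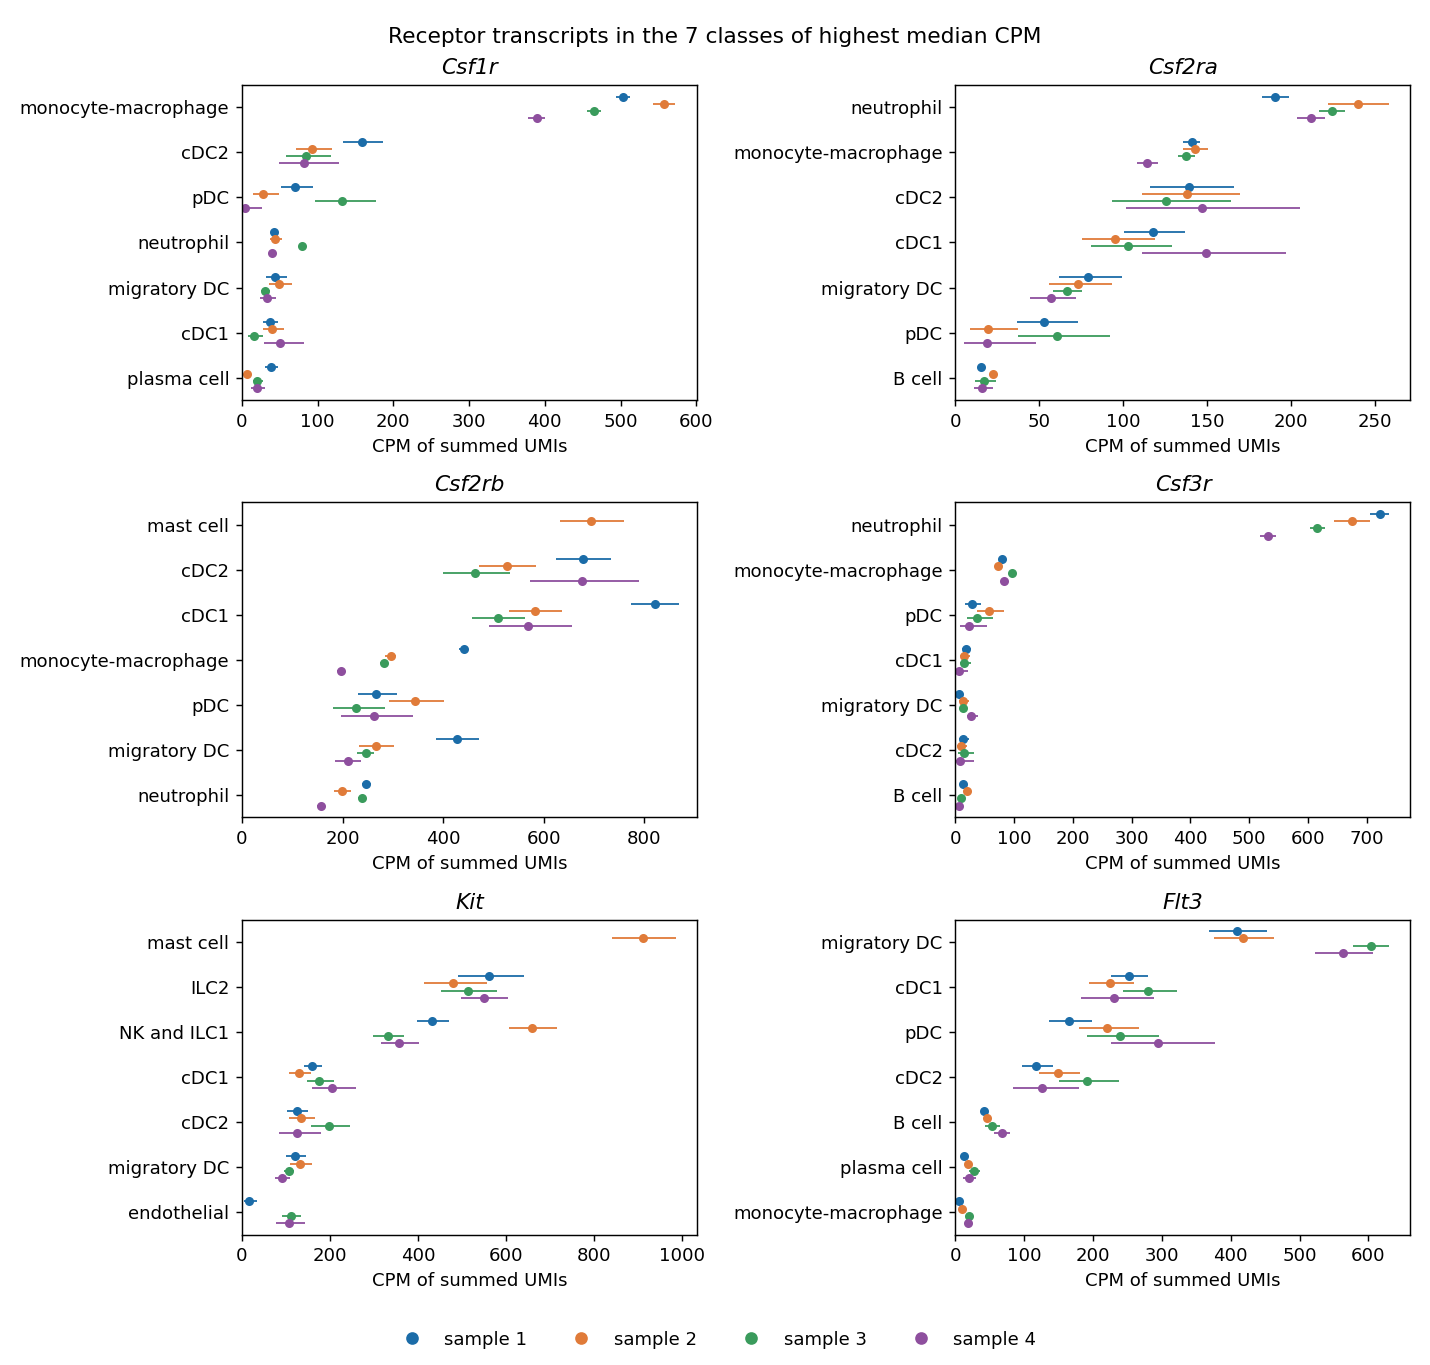
CPM of the 6 receptor genes in the 7 classes with the highest medians, with 1 point per sample and bars for 95% exact Poisson intervals. Csf1r and Csf3r each stand high in 1 class, Csf2ra and Csf2rb are spread over the myeloid classes, Kit is in mast cells, ILC2 and NK and ILC1 cells, and Flt3 in the 4 dendritic cell classes.

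**Figure D4:**
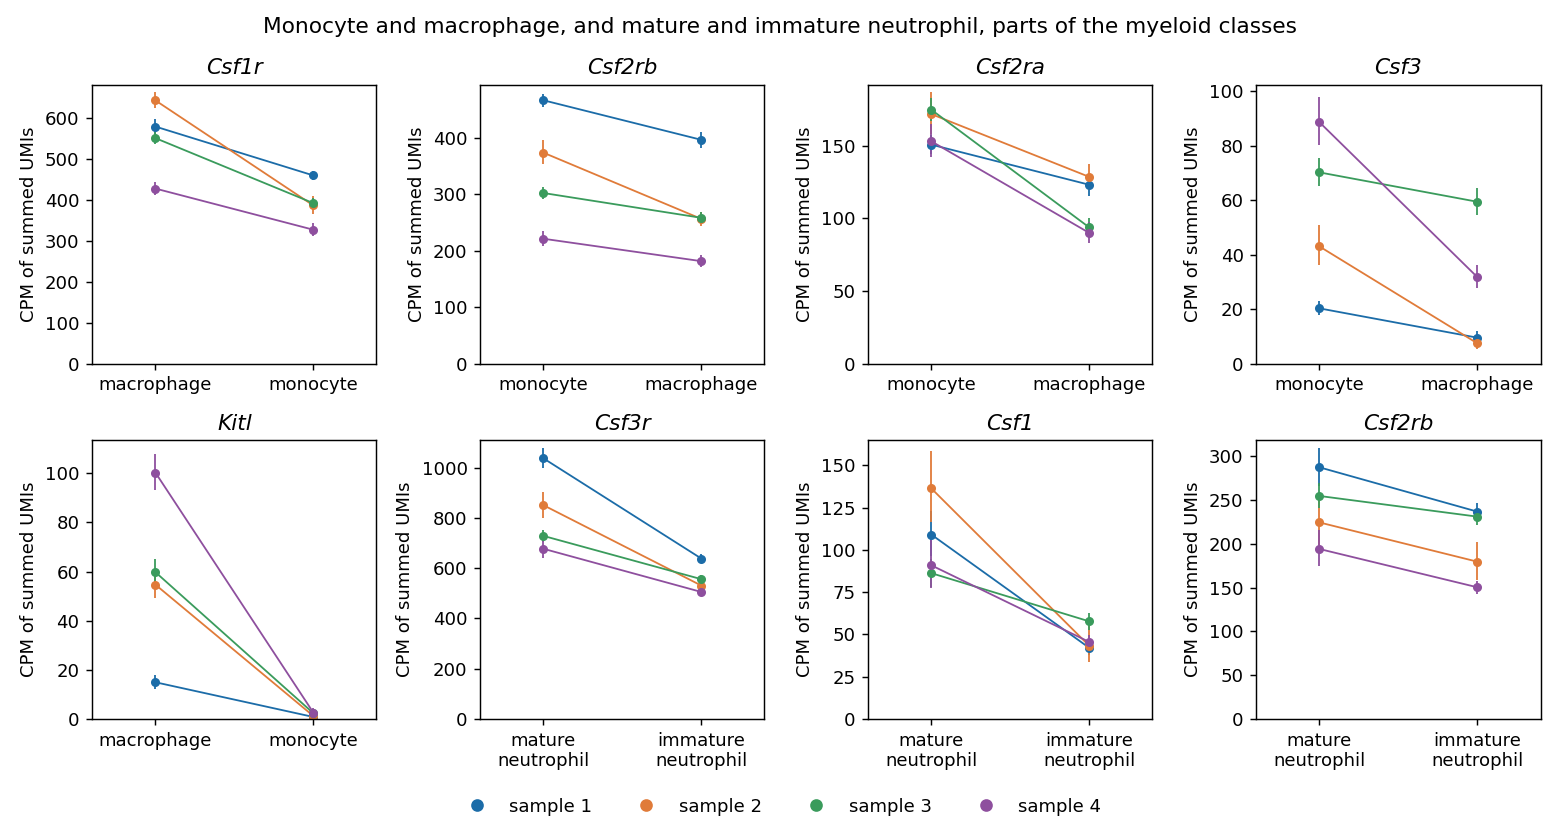
CPM of selected genes in monocytes and macrophages and in mature and immature neutrophils, with a line joining the 2 values of a sample and bars for 95% exact Poisson intervals. Every line falls from left to right. By CPM, macrophages hold more Csf1r and Kitl and monocytes more Csf2rb, Csf2ra and Csf3 in all 4 samples. Mature neutrophils hold more Csf3r, Csf1 and Csf2rb by CPM in each sample as well.

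Kit, the receptor for stem cell factor (chr5:75574916-75656722, plus strand), was not limited to mast cells. Mast cells held 910 CPM in sample 2, the only sample with enough of them, and ILC2 together with ILC3 held 498 CPM there, a ratio of 1.83 (1.57 to 2.13). ILC2 held 562, 480, 513 and 549 CPM in samples 1 to 4, and NK and ILC1 cells 432, 659, 332 and 357 CPM. ILC2 were the higher in samples 1, 3 and 4 and NK and ILC1 cells in sample 2, and the ranges overlapped. The 3 other samples had 16, 7 and 8 mast cells with 196, 47 and 58 Kit UMIs.

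T cells held 107, 165, 26.4 and 33.0 CPM of Kit, samples 1 and 2 being above samples 3 and 4. Gamma-delta T cells (270, 352, 51.0 and 58.7 CPM) and CD8 T cells (139, 186, 26.2 and 30.3 CPM) had the same order of samples. The remaining T cells, with both or neither of the Cd4 and Cd8 marks, held 163, 169, 44.4 and 83.5 CPM. CD4 T cells without Foxp3 (23.2, 51.7, 40.8 and 25.8 CPM) did not separate samples 1 and 2 from samples 3 and 4. Gamma-delta T cells were 11.6, 6.80, 1.25 and 2.27 times above CD4 T cells, and the interval reached 1 in sample 3 (0.722 to 2.06). With thinned cells the median of these ratios was 9.14 instead of 4.53, and that of CD8 to CD4 T cells was 4.07 instead of 2.39. CD8 T cells were 6.002 and 3.60 times above CD4 T cells in samples 1 and 2, below them in sample 3 (0.642, 0.431 to 0.939) and within counting error in sample 4 (1.17, 0.785 to 1.76). Each of these sample values rests on a mixture of 3 mice of unassigned genotype, so the split between samples was not tested.

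Dendritic cells carried Kit at an intermediate level, with cDC1 at 129 to 204 CPM, cDC2 at 125 to 198 CPM and migratory DCs at 91.1 to 132 CPM. Endothelial cells held 15.6, 111 and 106 CPM in samples 1, 3 and 4. Monocyte-macrophages were low at 5.13 to 8.49 CPM, below neutrophils at 11.9 to 22.9 CPM. After thinning, 35.2% to 43.8% of ILC2, 18.9% to 39.7% of NK and ILC1 cells, 2.14% to 12.4% of T cells and 0.328% to 0.928% of B cells had a Kit UMI.

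**Figure D5:**
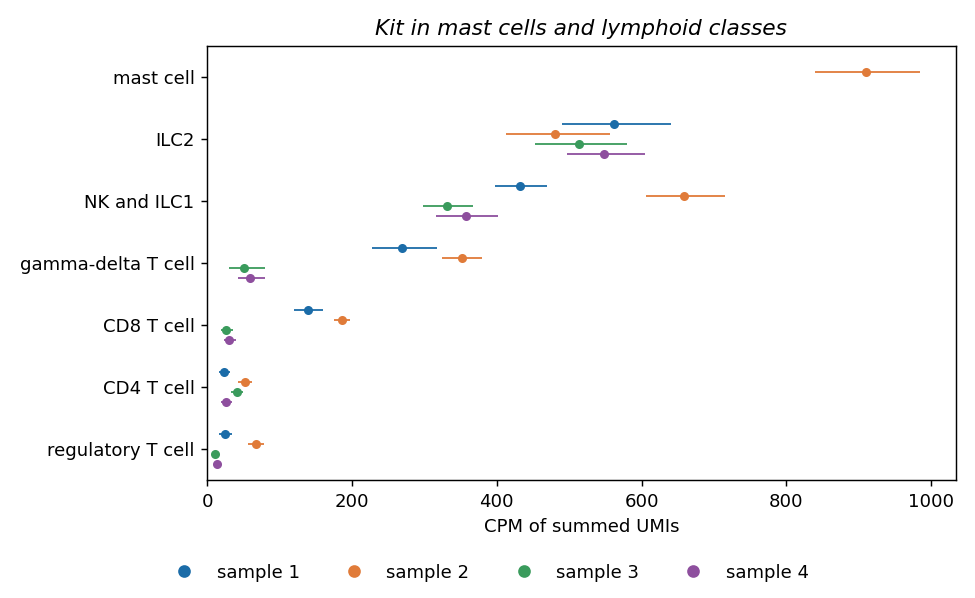
Levels (CPM) of Kit in mast cells, innate lymphocytes and 4 T cell subsets, with 1 point per sample and bars for 95% exact Poisson intervals. ILC2 stay between 480 and 562 CPM in all samples, while gamma-delta and CD8 T cells of samples 1 and 2 (139 to 352 CPM) lie above those of samples 3 and 4 (26.2 to 58.7 CPM).

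Flt3 (chr5:147330741-147400489, minus strand) was highest in migratory DCs, dendritic cells in the mature state that leaves for the lymph node, at 409, 417, 603 and 563 CPM. cDC1 held 252, 225, 280 and 231 CPM, pDCs 164, 220, 239 and 295 CPM, and cDC2 117, 149, 191 and 125 CPM. Migratory DCs lay above all of these values, by 1.62- to 2.44-fold over cDC1 and 2.80- to 4.49-fold over cDC2 (median 3.32, and 6.06 with thinned cells). cDC1 and pDCs overlapped, and so did pDCs and cDC2, while the ranges of cDC1 and cDC2 did not.

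cDC1 and cDC2 together held 41.9, 19.4, 12.6 and 10.3 times the Flt3 of monocyte-macrophages. The monocyte-macrophage level was 4.77, 9.86, 19.6 and 18.3 CPM, higher in samples 3 and 4, and monocytes (5.68, 13.3, 31.6 and 31.9 CPM) were above macrophages (3.13, 8.09, 5.26 and 9.52 CPM) in each sample. B cells held a lower level than any dendritic class, at 42.3 to 67.1 CPM, which was 6.88- to 16.5-fold above T cells (median 9.77, and 4.35 when mixed cells were assigned to their nearest class). A Flt3 UMI was in 21.9% to 24.3% of B cells and 1.99% to 5.59% of T cells, and after thinning in 3.72% to 8.31% and 0.303% to 1.07%. Flt3l, the ligand, was low everywhere, with 14.5 to 22.3 CPM in T cells, 9.91 to 22.8 CPM in ILC2 and 10.47 to 20.3 CPM in NK and ILC1 cells, whose ranges overlapped.

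Of 26 further genes listed for these pathways, 21 reached 50 CPM in a class read in at least 2 samples and 14 of the 21 had the same highest class in every sample, beside 51.0% of all genes. Among the signalling and feedback genes this was so for 6 of 11. Cish, a feedback inhibitor induced through STAT5, was highest in ILC2 (165 to 248 CPM), 2.44-fold or more above the next class. Stat3 was highest in NK and ILC1 cells (3588 to 3922 CPM), Stat5b in T cells (596 to 793 CPM), Jak2, the kinase bound to Csf2rb, in migratory DCs (1072 to 1226 CPM), Cbl in pDCs and Inpp5d in B cells. Socs3, a feedback inhibitor of G-CSF signalling, was spread over fibroblasts (182 to 283 CPM), endothelial cells (159 to 314 CPM) and monocyte-macrophages (183 to 220 CPM) without a fixed order.

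All 6 of the lineage transcription factors that reached 50 CPM in such a class had a fixed highest class, beside 51.0% of all genes. None was 2-fold above the next class in every sample. Their lowest folds over the next class were 1.16 (Spi1) to 1.82 (Cebpb), with 1.41 for Irf8 and 1.18 for Irf4. Among the classes read, Gata2, a factor of mast cells and basophils, was past 50 CPM in mast cells alone, at 562 CPM in sample 2. It was not counted because mast cells were read in 1 sample. The 12, 2, 8 and 3 basophils of samples 1 to 4, too few to be read, held 967, 1283, 854 and 3137 CPM. Cebpb was highest in neutrophils (2062 to 2189 CPM), Cebpa and Mitf in monocyte-macrophages (60.1 to 88.5 and 187 to 291 CPM), Irf8 in NK and ILC1 cells and Irf4 in B cells. Of the other receptor chains, Il5ra was highest in plasma cells and B cells, with overlapping ranges of 26.1 to 89.4 and 31.3 to 47.4 CPM, and Il3ra did not reach 50 CPM.

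Likeness of pattern was measured by Pearson's r of log2(CPM + 1) over the 60 class-by-sample sums read, among the 8759 genes, and is a description, since sums of 1 sample share a library. The genes most like Csf3r were Clec4d (r = 0.94), Cd14 (0.92) and Clec4e (0.91), and those most like Csf1r were Fcgr4 (0.90), Clec4a3 (0.88) and Tgfbi (0.88). Csf2ra was most like Pirb (0.91), Il1r2 (0.90) and Cd300a (0.89). Clec4d and Il1r2 are neutrophil markers of the gates and Cd14 a monocyte-macrophage marker, so their likeness is partly set by the gates. Csf2rb was most like Csf2rb2 (0.87), Spi1 (0.85) and Gm46224 (0.84), of which the first shares sequence with it. Flt3 was most like Pkib (0.93), Kynu (0.90) and Cmtr1 (0.87), and Kit was most like Akap13 (0.81), Jak2 (0.77) and Chn2 (0.77).

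Among the ligands, Kitl was most like Stard13 (0.94), Tcim (0.94) and Mb21d2 (0.93). Csf2 was most like Dach2 (0.86), Il5 (0.84) and Ccdc184 (0.84). Csf1 and Csf3 had no gene above 0.79, the nearest being Sgce (0.79), Hdx (0.78) and Wwtr1 (0.78) for Csf1 and Mapk6 (0.79), Ch25h (0.78) and Gja1 (0.76) for Csf3.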

How the data were processed

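Single-cell RNA libraries of 4 samples were read. The matrices the authors deposited hold whole-number UMI counts for every gene in every called cell, not normalized. The submitters' processing notes name Cell Ranger 5.0.0, STAR, Seurat and mm10, whereas the file headers name Cell Ranger 7.0.1, and the conflict was not resolved. Thresholds used by the study were not given in the sources used here.

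Cells with at least 200 genes and under 20% mitochondrial UMIs were kept. Doublets were scored with Scrublet in scanpy 1.11.5, and the highest scores were removed at 0.8% per 1000 cells (520 to 1399 cells per sample). Its automatic threshold marked 21.6%, 0%, 30.0% and 0% of the cells of the 4 samples and was not used. Totals and medians per sample are given with the results.

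Classes were gated cell by cell. Each marker's log UMIs per 10000 was scaled to its 0.9 quantile, and a class needed a mean of 0.2 over its panel and 3 detected markers. A cell was mixed when a panel of another lineage scored over 0.6 of the highest. A cell scoring highest for NK and ILC1, ILC2 or ILC3 was also mixed when its T cell panel scored over 0.6 of that. The panels exclude the 10 genes. The members and lists were chosen with earlier results of these data known, and the scoring rule and its limits after cell numbers had been seen. Monocytes and macrophages, neutrophil stages and T cell subsets were split by further markers.

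UMIs were summed per class and sample and expressed as CPM, and a class was read from 20 cells. Ratios have 95% exact intervals for 2 Poisson rates (scipy 1.17.1), and a share of 0 is given with the limit that 3 counts allow. Intervals cover counting error only. Samples have no assigned group, so there was no test, no fold change between samples and no model across genes. The named genes are the 10, the pathway list and the 3 genes of most alike pattern for each. Positions are from GENCODE M21 on GRCm38 and promoters from RefSeq on GRCm38.p6. Thinning to 1000 UMIs left out 1062 shallower cells. Alternatives were the doublet, gene, mitochondrial and mixed-cell rules, 1 more marker, Leiden clusters at resolution 1.0, per-cell means, thinned cells and other cell minimums. The steps were also run on simulated cells of known class, drawn from the class profiles of these data. Those cells had no doublets and differed within a class in depth and counting error only. The run therefore could not test the gates or intervals against doublets or against UMIs held by few cells.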

Additional observations from a re-analysis of the deposited data

How the results depend on the processing

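Over 10 alternatives, 286 values were recomputed, namely medians over samples of the ratios and the count of genes with a fixed highest class. No median ratio changed direction, and the count has none to change. Single samples were not checked for direction. Of the 286 values, 239 stayed within the interval or range of the main value. The 7 of 10 genes with a fixed highest class became 7 or 8, but the class itself changed for 3 genes. The highest median passed to mast cells for Csf1, Csf2rb and Kit with mixed cells assigned, with Leiden clusters and with a minimum of 10 cells, and from cDC2 to cDC1 for Csf2rb with 1 more marker and with thinned cells. The other 7 genes kept their class under all 10. No value could be had for ILC3 with 20 cells or more, except a Csf2 ratio to T cells of 30.8 (2 samples) with mixed cells assigned and of 64.7 (2 samples) with a minimum of 10 cells, which was added after the data were seen.

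With mixed cells assigned to a class, the median ratios became 35.8 for Csf1, 7.57 for Csf1r, 0.677 for Csf2rb, 6.20 for Csf3r, 2.29 for Kit, 12.1 for Flt3 and 1.39 for Csf2ra. With doublets kept they were 8.09 for Csf1r and 7.22 for Csf3r. With Leiden clusters they were 8.41 for Csf3r, 2.83 for Kitl, 1.79 for Csf2ra and, over ILC2 without ILC3, 2.17 for Kit. With per-cell means they were 9.29 for Csf1r, 0.836 for Csf2rb, 3.05 for Csf3, 8.90 for Csf3r and 1.82 for Csf2ra. With thinned cells they were 9.72 for Csf1r, 0.840 for Csf2rb, 3.28 for Csf3, 8.59 for Csf3r and 10.8 for Flt3. With a minimum of 10 cells the Kitl ratio was 2.71. The cause of these shifts was not tested. No paired analysis was possible because the labels assign no sample to a group.

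Mast cells were read in 1 sample and endothelial cells in 3, so their levels rest on few cells. Clusters of cells contained no basophil, ILC3, cDC1 or cDC2 class. Ratios with only these classes on a side have no value there, and the Kit ratio is mast cells over ILC2 alone.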

Other observations

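Values that separated samples 1 and 2 from samples 3 and 4 were seen in several classes. The labels assign no group, no test was made, and they are listed only as values. In gamma-delta T cells Kit was 270, 352, 51.0 and 58.7 CPM in samples 1 to 4, and in CD8 T cells 139, 186, 26.2 and 30.3 CPM. In ILC2 Csf2 was 286, 232, 121 and 123 CPM. In CD4 T cells Csf1 was 1.74, 6.84, 18.7 and 25.8 CPM. In monocytes Csf3 was 20.3, 43.0, 70.3 and 88.7 CPM and Flt3 5.68, 13.3, 31.6 and 31.9 CPM. These were picked after their values had been seen, and most member and class pairs did not split in this way.

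Mixed cells held 19.6% to 27.3% of Csf1 UMIs, 21.9% to 40.2% of Csf2 UMIs and 25.2% to 34.0% of Csf3 UMIs in a sample, but 3.34% to 7.06% of Kitl UMIs.

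The few cells of classes that were not read held high levels of some members. The 25 basophils carried 119, 11, 56 and 36 Csf2rb UMIs in samples 1 to 4, and the 35 ILC3 carried 33, 53, 11 and 11 Kit UMIs.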
